A study of Rattus norvegicus with 2 samples.

Results

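Vasoactive intestinal peptide (VIP) and prokineticin 2 are secreted peptides through which the suprachiasmatic nucleus (SCN), the hypothalamic seat of the circadian clock, keeps its own cells in step and passes time of day to the rest of the brain. The genes described are Vip, the VIP receptor genes Vipr1 and Vipr2, the prokineticin gene Prok2 and the prokineticin receptor gene Prokr2. They were picked out by symbol and are 5 of the 22777 genes in the mRNA table of rat hypothalamus. Each symbol matched 1 gene, and the 5 genes have 6 listed transcripts among 26324. Of the 5 genes, 4 were above 0 in at least 1 library, as were 18052 of all genes.

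Hypothalamic tissue was taken from female Sprague Dawley rats, an outbred laboratory strain, that were kept in a 12:12 h light-dark cycle. No treatment is described apart from deep pentobarbital anesthesia before decapitation. Prepubertal rats were killed on postnatal day 25 and pubertal rats, in their first estrus after vaginal opening, on postnatal day 35, and each stage comprised 3 rats. The files give a single value per transcript and stage without saying whether RNA was pooled or values averaged, so each stage counts as 1 library and no test between the stages was possible. The hour at which tissue was taken is not given in the sources used here. In dissected hypothalamic tissue, fewer cells of a type and less RNA per cell cannot be told apart, and signals of a small nucleus are diluted by the tissue around it.

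VIP is made by neurons of the ventral SCN that receive input from the retina, and it couples clock neurons to each other through the receptor VPAC2, the product of Vipr2. Nerve fibres with VIP also reach neurons that release gonadotropin-releasing hormone (GnRH), and VIP stimulates prolactin secretion from the pituitary. Prokineticin 2 acts on PROKR2, a receptor in many targets of the SCN, and the pair is needed in development for the olfactory bulb and for the migration of GnRH neurons, so that loss of either gene in humans causes hypogonadotropic hypogonadism, with or without loss of smell.

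The upstream sequences of the genes for both peptides are shown because each is a known point of control: the Vip gene responds to cAMP through a cAMP response element, and the Prok2 gene is driven by the clock proteins CLOCK and BMAL1 through E-boxes. The sequences are from RefSeq (rat build GRCr8), cover the 250 bases before the transcription start and read 5′ to 3′ on the strand of the gene. Capitals mark the letters TGACGTC, the first 7 of the full element TGACGTCA, in Vip, and the E-box CACGTG in Prok2.
Vip, chr1:44470230-44470479, plus strand: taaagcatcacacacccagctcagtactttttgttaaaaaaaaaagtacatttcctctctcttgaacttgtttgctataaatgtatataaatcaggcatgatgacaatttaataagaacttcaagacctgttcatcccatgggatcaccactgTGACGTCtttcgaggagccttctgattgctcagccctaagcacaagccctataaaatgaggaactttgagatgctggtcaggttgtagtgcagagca
Prok2, chr4:133917934-133918183, minus strand: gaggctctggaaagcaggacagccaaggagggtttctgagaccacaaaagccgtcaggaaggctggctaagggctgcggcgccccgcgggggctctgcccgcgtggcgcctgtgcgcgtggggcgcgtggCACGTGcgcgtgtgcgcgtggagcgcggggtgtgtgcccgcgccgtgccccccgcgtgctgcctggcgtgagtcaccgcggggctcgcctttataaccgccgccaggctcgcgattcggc

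In Vip the capitals begin 97 bases before the start site, and in Prok2 they begin 120 bases before it. TGACGTC was found on either strand in 2.80% of the 33469 rat promoters of this length, TGACGTCA in 1.59% and CACGTG in 5.59%. The window of Vip holds 40.0% G and C with 2 CpG, and that of Prok2 holds 72.4% with 33 CpG, where the median of all promoters is 51.2%. Promoters were given for 4 of the 5 genes. The windows of Vipr1 and Vipr2 hold none of these letters, with 72.0% and 64.0% G and C. These matches describe the sequence, and no measurement of binding was made.

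Expression is given as FPKM as deposited, the mapped fragments of a transcript scaled to its length and to the size of the library. Low FPKM values of genes with 1 transcript fell on steps of 1 fragment, and the steps gave the number of fragments behind each value. Of the values of up to 12 fragments in transcripts of at least 800 nt, 94.4% of 1867 in the prepubertal library and 93.4% of 2055 in the pubertal library lay within 0.1 of a whole number. The steps correspond to a library size of 20700000 fragments before puberty and 16100000 at puberty, any scaling by the authors included. The prepubertal size is 1.28 times the pubertal one, which need not be the ratio of sequenced fragments. Intervals are exact 95% intervals for these fragment numbers. They cover counting error only and hold no spread between rats.

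Vip was the most abundant of the 5 genes, and its level was somewhat higher in the pubertal library. Vip (ENSRNOG00000018808, 1 transcript of 1498 nt) was at 19.7 FPKM in the prepubertal library (interval 18.0 to 21.5) and at 22.8 FPKM in the pubertal library (20.8 to 25). These values rest on 506 and 459 fragments and stood above those of 69.2% and 72.7% of the genes above 0. The pubertal level was 1.16 times the prepubertal level, with a counting interval of 1.02 to 1.32, and the difference on the scale of log2(FPKM + 1) was 0.20. Setting the libraries to equal medians multiplies the pubertal values by 1.05 and gave a log2 difference of 0.26. Subtracting the median of genes of like transcript length, 0.03, gave 0.17. The lower limit of the counting interval on the log2 scale was 0.02, below that median, so whether Vip was higher beyond counting error depended on the scaling.

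Vipr2 (ENSRNOG00000004317, 3360 nt), whose product VPAC2 is the main VIP receptor of SCN neurons, was at 4.67 FPKM before puberty (4.16 to 5.23) and at 4.82 FPKM at puberty (4.23 to 5.47). The ratio of the pubertal to the prepubertal level was 1.03, with a counting interval of 0.867 to 1.23 from 300 and 242 fragments. The log2 difference was 0.04, and in the deposited scaling the libraries lay within counting error of each other. With the libraries scaled to equal Actb it was 0.38, above the upper counting limit of 0.24, where the median of all genes was 0.30. Vip was at 4.22 times the FPKM of Vipr2 before puberty and 4.73 times at puberty.

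Vipr1 (ENSRNOG00000047457, 1362 nt) encodes VPAC1, the VIP receptor best known from lung, gut, T cells and cerebral cortex. It was barely detected in the hypothalamus, at 0.174 FPKM before puberty (0.0477 to 0.448) and 0.0555 FPKM at puberty (0.00141 to 0.310). These values rest on 4 fragments and 1 fragment. The ratio was 0.319, but the counting interval ran from 0.00647 to 3.22, so no difference was detectable at this depth. The level of Vipr2 was 26.8 times that of Vipr1 in the prepubertal library and 86.8 times in the pubertal library, and the latter figure rests on the 1 fragment of Vipr1. Of the T cell markers examined, Cd3e was at 0.50 and 0 FPKM and Cd3d at 0.118 and 0.149 FPKM, and whether T cells contributed to Vipr1 was not tested.

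Prokr2 (ENSRNOG00000021266, 1269 nt) was at 0.856 FPKM in the prepubertal library (0.509 to 1.36) and 0.909 FPKM in the pubertal library (0.510 to 1.5), from 18 and 15 fragments. The ratio was 1.06 with a counting interval of 0.498 to 2.23. A doubling or halving of this receptor between the stages therefore lies at the edge of what the fragments could show. Its log2 difference was 0.04.

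Prok2 (ENSRNOG00000010898) was listed at 0 in both libraries, for its transcripts of 387 nt and of 324 nt alike. Both lengths are whole numbers of codons, 129 and 108, but so are those of Vipr1 (454), Vipr2 (1120) and Prokr2 (423). Whether the annotated models of Prok2 hold the coding length alone was not tested. If they do, fragments from untranslated regions would not be counted. For a count of 0 the limit used was 3 fragments. For the 387 nt transcript that limit corresponds to about 1.11 FPKM before puberty and 1.36 FPKM at puberty, and for the 324 nt transcript to about 2.13 and 2.51 FPKM. At these short lengths the steps were less sharp, with 78.9% of 133 values and 85.8% of 155 values within 0.15 of a whole fragment. A value of 0 was common for short models, since 63.9% of the 902 mRNA transcripts of 300 to 400 nt were listed at 0 in both libraries, against 19.1% of the 24893 longer ones. Prok2 was thus not detected at this depth, and a level as high as that of Prokr2 would not have been detected with certainty.

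**Figure D1:**
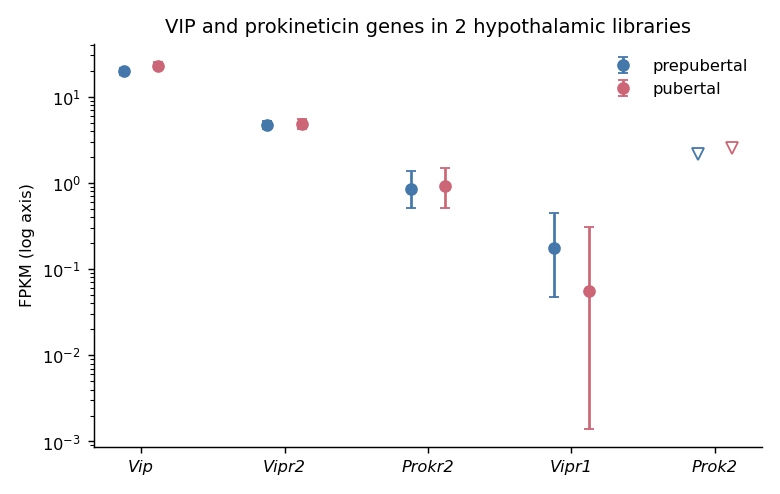
FPKM (log axis) of the 5 genes in the prepubertal (blue) and pubertal (red) library, 1 library per stage; bars are exact 95% counting intervals, and open triangles mark the larger of the limits that 3 fragments set for Prok2, which was listed at 0. Vip stands near 20 FPKM and Vipr2 near 5 FPKM in both libraries, while the bars of Vipr1 span the widest range.

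The order of the levels was the same in both libraries: Vip, Vipr2, Prokr2 and Vipr1. In each library the counting intervals of neighbours in this order did not overlap. The place of Prok2 could not be set, because its limit lies above the level of Prokr2.

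None of the 5 genes changed 1.5-fold or more in FPKM + 1 between the stages, the size used here to count changes. Among all 18052 genes above 0, 749 did, which is 4.15%, with 326 higher (1.81%) and 423 lower (2.34%) at puberty. When the libraries were set to equal medians, 407 were higher and 345 lower, and at equal Actb 2418 were higher and 171 lower. At equal Actb Vip passed 1.5-fold with a log2 difference of 0.59, and with a pseudocount of 0.1 in place of 1 Vipr1 did, at -0.82. Of the 4 genes above 0, Vip, Vipr2 and Prokr2 were higher and Vipr1 was lower at puberty, and their median log2 difference was 0.04, beside -0.01 for all genes. With so few genes and 1 library per stage, this count describes the libraries only.

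**Figure D2:**
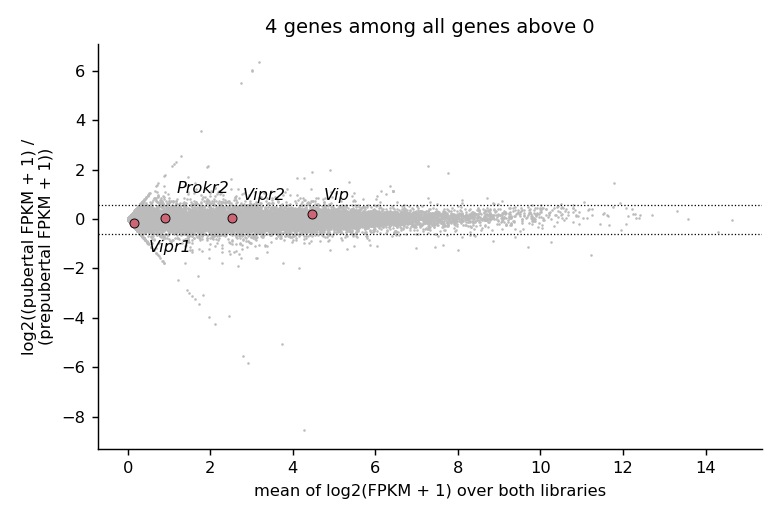
Log2 difference in FPKM + 1 between the pubertal and the prepubertal library against the mean of log2(FPKM + 1), for the 18052 genes above 0 (grey, 1 point per gene) and for the 4 detected genes (red). The dotted lines mark a 1.5-fold change; Vip lies at 0.20, Vipr2 and Prokr2 at 0.04 and Vipr1 at -0.15, all between the lines.

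Adcyap1 encodes PACAP, the peptide closest to VIP, which shares the VIP receptors and also has a receptor of its own, the product of Adcyap1r1. Adcyap1 was nearly level with Vip, at 20.2 FPKM before puberty and 21.4 FPKM at puberty, from 776 and 646 fragments. Vip stood at 0.977 times the level of Adcyap1 before puberty and 1.06 times at puberty. Adcyap1r1 was at 55.7 and 60.3 FPKM summed over its 4 transcripts, which is 11.9 and 12.5 times the level of Vipr2. Among receptors for VIP or PACAP, the transcript of the PACAP receptor was therefore the most abundant, followed by Vipr2 and then Vipr1.

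The list of the VIP, PACAP and secretin family, its receptors and the receptor partners Ramp1, Ramp2 and Ramp3 held 18 genes, of which 16 were above 0. Of these, 12 were higher and 4 lower at puberty, with a median log2 difference of 0.08, and 0 changed 1.5-fold or more. Glp1r, the receptor for the gut and brain peptide GLP-1, went from 0.583 to 1.10 FPKM, a ratio of 1.88 with a counting interval of 1.19 to 3.0 from 34 and 50 fragments. Ramp2, a partner that shapes the ligand preference of such receptors, went from 16.4 to 21.8 FPKM, a ratio of 1.33 (1.07 to 1.64). Ramp3 went the other way, from 98.1 to 81.9 FPKM, a ratio of 0.835 (0.778 to 0.896). For these 3 genes the counting interval in the deposited scaling did not reach equality, as for Vip, and in none of them is the spread between rats known. With the libraries scaled to equal Actb, which multiplies pubertal values by 1.32, Ramp3 was higher at puberty, so its direction depended on the scaling.

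Several other members of that family rested on few fragments. Sct, the gene of secretin, had 6 fragments before puberty and 2 at puberty, and the interval of its ratio of 0.418 ran from 0.0412 to 2.33. Ramp1 (52.7 and 55.3 FPKM) and Gipr (1.02 and 1.08 FPKM) had ratios of 1.05 and 1.06 with intervals that held equality. Sctr, Gcgr and Glp2r rested on 3 to 7 fragments in each library. Ghrh, the gene of growth hormone-releasing hormone, was at 2.20 and 2.77 FPKM, and its receptor gene Ghrhr was listed at 0 and at 0.202 FPKM. Gcg and Gip, the genes of glucagon and of the gut peptide GIP, were listed at 0 in both libraries.

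In the prokineticin system beside Prok2 and Prokr2, Mrap2 alone was abundant. Its product is an accessory protein that dampens prokineticin receptor signalling and also acts on the melanocortin receptor of feeding neurons. It was at 34.5 FPKM before puberty and 37.3 FPKM at puberty, a ratio of 1.08 with a counting interval of 0.972 to 1.20. Prokr1, the other prokineticin receptor gene, had 3 fragments before puberty (0.156 FPKM) and 0 at puberty, where 3 fragments would be 0.199 FPKM. Prok1 was listed at 0 in both libraries.

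**Figure D3:**
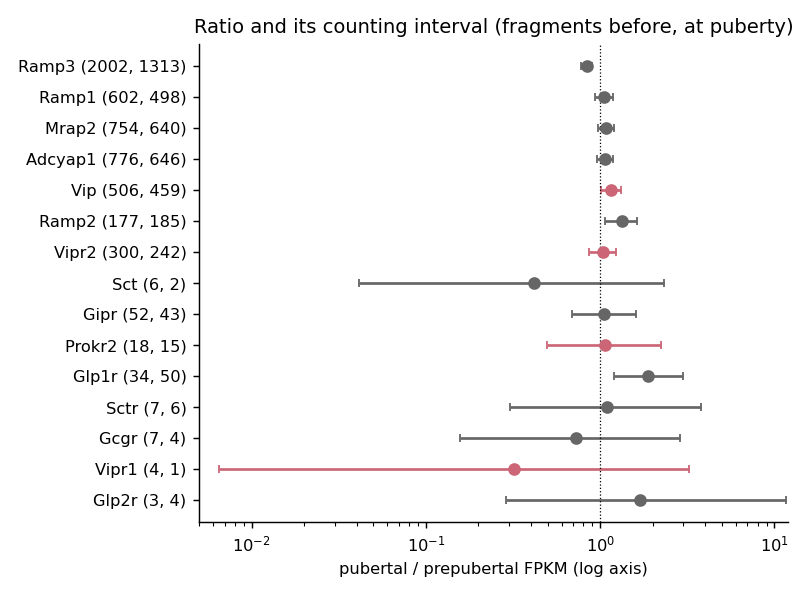
Ratio of pubertal to prepubertal FPKM (log axis) for the genes of the VIP, PACAP and secretin family and the prokineticin system that have 1 transcript and at least 1 fragment in each library, ordered by prepubertal FPKM with the highest at the top. Bars are exact 95% counting intervals, numbers in brackets are fragments before and at puberty, and Vip, Vipr2, Prokr2 and Vipr1 are in red; intervals widen down to the genes with a few fragments.

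Other signals of the SCN differed in both directions. Of 13 genes for such signals and their receptors, 6 were higher and 7 lower, the median log2 difference was -0.03 and 0 changed 1.5-fold or more. Scaled to equal Actb, 10 were higher and 3 lower. Avp, the gene of vasopressin, which is made in the SCN but mostly in the supraoptic and paraventricular nuclei, was the highest at 254 and 240 FPKM. Grp, the gene of gastrin-releasing peptide, which like VIP marks the ventral SCN, was at 4.41 and 4.66 FPKM, with a counting interval of the ratio of 0.769 to 1.44. Nmur2, the receptor gene for the SCN peptide neuromedin S, went from 0.729 to 1.57 FPKM, a log2 difference of 0.57 from 16 and 27 fragments. Tgfa, the gene of transforming growth factor alpha, an SCN signal that acts on the receptor encoded by Egfr, went the other way, from 6.95 to 4.49 FPKM. Its ratio was 0.646 with a counting interval of 0.559 to 0.746, and that of Egfr was 0.809 (0.671 to 0.969), both in the deposited scaling. At equal Actb Tgfa was still lower at puberty and Egfr was higher. Nms (listed as NMS) had 1 fragment before puberty and 2 at puberty, too few to compare.

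Of 10 genes that mark SCN neurons or their development, 6 were higher and 4 lower, with a median log2 difference of 0.15. With the libraries scaled to equal Actb all 10 were higher, and in that scaling the median of all genes moved to 0.30. Calb2, the gene of calretinin, which is also expressed far outside the SCN, was the highest at 323 and 374 FPKM. Syt10, a synaptotagmin gene known for its SCN expression, had the largest difference, from 5.55 to 7.43 FPKM (log2 difference 0.36). Rgs16, a regulator of G protein signalling with rhythmic SCN expression, went down by as much, from 44.6 to 34.5 FPKM (log2 difference -0.36), and Rora, Zfhx3 and Six6 were also lower. Lhx1, a transcription factor gene of SCN neurons, was at 1.17 and 1.73 FPKM, with a counting interval of the ratio of 0.940 to 2.30. The SCN markers were thus detected, but none of them is made by VIP neurons alone.

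More of the signalling genes below the receptors were lower than higher at puberty in the deposited scaling, in which 51.0% of all genes were lower. VIP receptors raise cAMP through the G protein Gs, and of 22 genes of that chain 7 were higher and 15 lower, with a median log2 difference of -0.15. Gnas, the Gs subunit gene, is listed under 2 gene identifiers, of which the larger went from 950 to 839 FPKM. Adcy1, an adenylyl cyclase gene, had the largest difference, from 31.9 to 23.2 FPKM. Prokineticin receptors act through Gq, and all 9 genes of that chain found in the table were lower, with a median of -0.12. Gnaq, the highest, was nearly level at 93.2 and 92.6 FPKM, and Itpr2, a calcium release channel gene, had the largest difference (6.19 and 3.89 FPKM). None of these 31 genes changed 1.5-fold or more. The direction depended on the scaling: at equal medians 3 of the 9 Gq genes were higher, and at equal Actb 8 of the 9 Gq genes and 20 of the 22 cAMP genes were higher. Long transcripts were lower in general, and after centring within classes of transcript length 6 of the 9 Gq genes and 16 of the 22 cAMP genes were lower.

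Among 13 detected genes that, like PROK2 and PROKR2, are linked to hypogonadotropic hypogonadism in humans, 7 were higher and 6 lower at puberty, with a median log2 difference of 0.01, and at equal Actb 10 were higher and 3 lower. Kiss1, the gene of kisspeptin, was the 1 gene in these lists that changed 1.5-fold or more, from 1.46 to 3.78 FPKM. The highest was Nsmf, at 146 and 122 FPKM. Over all 82 listed genes above 0 beside the 5 described, this is 1 gene, against 4.15% of all genes.

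Markers of the tissues around the hypothalamus differed between the libraries. Markers of the hypothalamus were present in both, led by Pmch at 1675 and 2723 FPKM, and 7 of 10 were higher at puberty, with a summed level of 2663 and 4060 FPKM. Markers of cortex and hippocampus, where VIP marks a class of interneurons, were lower at puberty in 5 of 7 genes and summed to 34.7 and 17.5 FPKM. The cortical marker with the highest level, Slc17a7, went from 26.2 to 12.8 FPKM. Thalamic markers were lower in 6 of 7 genes and summed to 387 and 331 FPKM. More than any other gene, Slc17a6 set these sums, at 206 and 188 FPKM, and whether it came from thalamus was not tested. The 1 thalamic gene that was higher is also counted among the SCN genes above. Scaled to equal Actb, 3 of 7 thalamic genes were lower and the cortical count stayed at 5 of 7. Vip itself was higher at puberty while most of these cortical and thalamic markers were lower, and their part in its level was not tested.

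Pituitary genes were higher at puberty in 5 of 7 cases, with a summed level of 31.8 and 44.5 FPKM. Prl, the prolactin gene, was listed at 0 before puberty and at 3.40 FPKM at puberty (41 fragments), and Gh1 was at 0.872 and 4.09 FPKM, Fshb was at 0 and 0.396 FPKM, and Cga, the highest, was at 24.6 and 30.0 FPKM. Tshb was at 4.68 and 5.28 FPKM, and Lhb (1.44 and 1.29 FPKM) and Pou1f1 (0.155 and 0.0565 FPKM) were lower. Myelin genes, which are rich in the optic chiasm under the SCN, were higher in 3 of 6 cases. Cd4 led the T cell markers at 3.68 and 2.64 FPKM, with 2 of 6 higher. The other T cell markers were at 0.50 FPKM or less in each library, so the level of Cd4 was not shared by them. Choroid plexus markers were higher in 4 of 5 genes, but their sum went from 34.9 to 31 FPKM, since the highest, Ttr, went from 29.0 to 23.0 FPKM. Endothelial markers were lower in 5 of 5 genes, led by Cldn5 at 70.9 and 65.5 FPKM. Scaled to equal Actb, 6 of 6 myelin genes, 3 of 6 T cell genes and 3 of 5 endothelial genes were higher. The part of any of these tissues in the values of Vip, Vipr1, Vipr2 or Prokr2 was not tested.

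**Figure D4:**
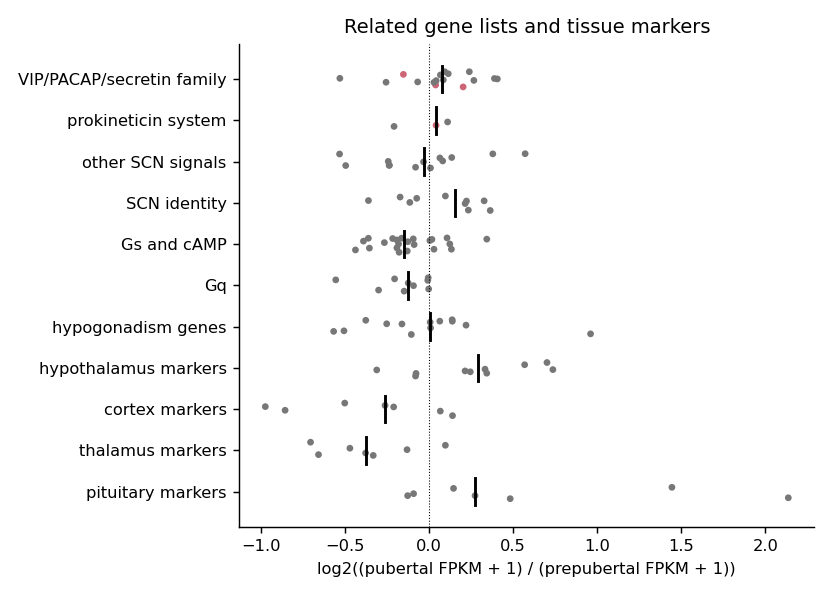
Log2 difference in FPKM + 1 between the pubertal and the prepubertal library for each gene above 0 in the related gene lists and the main tissue marker lists (1 point per gene; Vip, Vipr1, Vipr2 and Prokr2 in red; black bars are medians; SCN is the suprachiasmatic nucleus). The medians of the VIP family and of the prokineticin system are 0.08 and 0.04, while cortical and thalamic markers have medians of -0.26 and -0.38 and hypothalamic markers 0.29.

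The likeness of other genes to each of the 4 was measured as the distance in log2(FPKM + 1) over the 2 libraries. The nearest to Vip were Eci1 (19.7 and 22.6 FPKM) and Gga2 (19.8 and 23.1 FPKM). Those nearest to Vipr2 were Pde1c (4.67 and 4.86 FPKM) and Sowahc (4.59 and 4.81 FPKM). Prokr2 was nearest to LOC100911928 (0.842 and 0.892 FPKM) and Pdia5 (0.878 and 0.886 FPKM), and Vipr1 to Il1b (0.180 and 0.0572 FPKM) and LOC500350 (0.175 and 0.0494 FPKM). Within a distance of 0.1 lay 98 genes for Vip, 109 each for Vipr2 and Prokr2 and 358 for Vipr1, so 2 libraries separate few patterns.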

How the data were processed

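Hypothalamic RNA was depleted of ribosomal RNA and sequenced as strand-specific paired-end libraries. Reads were mapped with TopHat and transcripts built with Cufflinks and Scripture by the authors, who deposited FPKM values per transcript from Cuffdiff (Cufflinks and Cuffdiff 2.1.1 per the labels). The submitters' processing notes name the build Rnor_5.0, the paper another one, so no coordinates of the genes are given in the build of the files. That table also holds the authors' fold changes, p-values and q-values, which were not used. The lncRNA sequences and the goat data were not used here.

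FPKM was summed over the transcripts of a gene, and log2((pubertal + 1) / (prepubertal + 1)) was computed with a pseudocount of 1, which understates changes of low genes. Genes above 0 in at least 1 library were counted, and a change is 1.5-fold in FPKM + 1. FPKM of the 5 genes were equal in the mRNA and comparison tables. The value of 1 fragment was taken as the FPKM step, inverse to transcript length less a mean fragment length (257 and 251 nt in the prepubertal and pubertal library), that made most low values whole; the procedure was tested on simulated data. Fragment numbers have exact Poisson intervals, ratios exact conditional binomial (Clopper-Pearson) intervals at 95%, with fragments taken as independent molecules, which duplicates from PCR would not be. The limit for a count of 0 is 3 fragments, where the exact 95% interval used for the other counts would reach 3.69. The genes and lists were chosen with earlier results of these data known. Named are the 5 genes, their families, and from each other list the highest gene and the largest difference (FPKM of at least 1), plus from each marker list the highest gene, of which 1 is not reported here; the 2 nearest genes have the smallest distance. Grp, NMS, Tgfa, Egfr, Rgs16, Rora, Zfhx3, Six6, Lhx1, Cd3e, Cd3d, Prl, Gh1, Fshb, Tshb, Lhb and Pou1f1 were named beside this rule, after their values were seen. One listed gene each of the Gq chain (Plcb2) and of the cortical markers (Neurod2) was not matched by symbol and was not analysed here. Alternatives were a pseudocount of 0.1, equal medians, equal Actb, the highest transcript, no filter, FPKM of at least 1, a fold of 2 and the FPKM of the comparison table. The tools were Python 3.11.15, scipy 1.17.1, numpy 2.4.6, matplotlib 3.10.9 and pandas 2.3.3.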

Additional observations from a re-analysis of the deposited data

How the results depend on the processing

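The log2 differences ranged from 0.17 to 0.59 for Vip, 0.04 to 0.38 for Vipr2, 0.00 to 0.25 for Prokr2 and -0.82 to -0.13 for Vipr1, and none changed sign. Prok2, at 0 in both libraries, could not move under these alternatives. The comparison table and the highest transcript left the other 4 genes as they were by construction, since the values are equal and each gene has 1 transcript, and dropping the filter adds only genes at 0. A pseudocount of 0.1 FPKM moved Vipr1 to -0.82, a value that rests on 4 fragments and 1 fragment. The pseudocount also raised the number of genes changed 1.5-fold from 749 to 2887, that of the 5 genes described from 0 to 1 (Vipr1) and that of the 82 related genes from 1 to 12. With Actb made equal, which multiplies pubertal values by 1.32, the scaling moved Vip to 0.59 and Vipr2 to 0.38, with 2589 genes in all, 1 of the 5 (Vip) and 10 related genes past 1.5-fold. The median of all genes moved to 0.30 in that scaling, and relative to it Vip stood at 0.30, Vipr2 at 0.09, Prokr2 at -0.05 and Vipr1 at -0.42, so that Prokr2 lay below the median of all genes there and above it as deposited (0.05). Equal medians and the transcript with the highest FPKM each gave 2 related genes. At equal medians 54.1% of the changed genes were higher at puberty, against 43.5% as deposited and 93.4% at equal Actb. A fold of 2 left 155 genes in all and 0 related genes. Centring within 10 classes of transcript length, chosen after seeing the data because longer transcripts were lower at puberty (class medians from 0.07 to -0.10), put Vip at 0.17. No paired analysis was possible because each stage has 1 column. Depth limits Vipr1, Prokr2 and Prok2 most.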
